A study of Homo sapiens with 4 samples.

Results

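The genes described here are 34 named genes of interferon signalling, interferon-induced defence and HLA class I antigen presentation, taken by symbol from 25343 rows that are listed for each cell line. All 34 were found in both tables. By role they are 9 genes of signalling, 16 interferon-induced effectors, 2 RNA sensors and 7 genes of class I presentation. RNA sequencing was done on 4 libraries, 1 per group: C4-2B ENZR with MAOA knockdown, C4-2B ENZR with a control hairpin, LNCaP with MAOA knockdown, and LNCaP with a control hairpin. LNCaP is a human prostate carcinoma line that responds to androgen, and C4-2B ENZR, of the LNCaP lineage, resists the antiandrogen drug enzalutamide and was grown with 20 µM of it. Both media held 10% serum. Knockdown and control cells of each line were all infected with lentivirus and selected with an antibiotic, so the virus is common to every group. The hairpin was directed at the coding region of MAOA, and whether 1 hairpin served both lines is not stated. With 1 library a group, no replicate checks a difference inside a line. The labels of the lines end in different run suffixes, whose meaning is not stated, and these cannot be told apart from line.

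Interferons bind cell surface receptors, whose associated kinases JAK1 and TYK2 phosphorylate STAT proteins. STAT proteins and IRF9 then switch on antiviral genes through a DNA element named ISRE, whereas interferon gamma acts largely through GAS elements and through IRF1. Class I presentation shows peptides, cut by the proteasome and carried by the TAP transporter, on an HLA heavy chain paired with beta-2-microglobulin. LNCaP has been described as a line with little JAK1 and a poor interferon response.

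Levels are given as CPM, read counts scaled by the authors to a common library size. The scaling was done separately for each line, so levels are not compared between lines. The log2 ratio of a line is that of (knockdown CPM + 1) over (control CPM + 1). Whole reads were recovered for 100% of values (within 0.01 read), with 23679869 reads in the C4-2B ENZR knockdown and 23479051 in its control, and 52012696 in the LNCaP knockdown and 52550452 in its control. Intervals in brackets are exact 95% intervals of the ratio of scaled reads and cover counting error only. A gene was taken as measured in a line at a mean of at least 0.25 CPM over its 2 libraries, which 31 of the 34 genes met in C4-2B ENZR and 33 in LNCaP. In C4-2B ENZR the nearest gene inside that limit was IFI27 (mean 0.426 CPM) and the nearest outside it OAS2 (0.162). In LNCaP these were OAS2 (0.513) and IFI44L (0.0381). The only test is limma on the ratios of both lines over 13114 genes with a mean of at least 1 CPM in both tables, adjusted by Benjamini-Hochberg, and a gene is said to have risen or fallen over both lines where it passed. It rests on 1 residual degree of freedom and a prior of 276, so its SE is pooled over genes and hardly measures the spread between the lines.

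The targeted gene was lower in both knockdown libraries. MAOA, the monoamine oxidase that degrades serotonin and noradrenaline, was at 219 CPM in the C4-2B ENZR knockdown and 327 in its control (66.8% of control), and at 140 CPM in the LNCaP knockdown and 445 in its control (31.3%). Over all measured genes the log2 ratio had a median of 0.00 for C4-2B ENZR (15820 genes) and of 0.10 for LNCaP (15869 genes), so an LNCaP ratio is read against 0.10 rather than 0. All 10 prostate luminal markers were measured in both lines. The membrane antigen gene FOLH1 stood at 1013 and 994 CPM in the C4-2B ENZR knockdown and control and at 731 and 732 CPM in those of LNCaP. The secreted prostate antigen gene KLK3 stood at 6.34 CPM in the knockdown and 3.72 in the control of C4-2B ENZR, and at 2716 CPM in the knockdown and 2391 in the control of LNCaP. It rose in limma (mean log2 ratio 0.41, SE 0.12, adjusted p = 0.0260), but passed in only 3 of 10 other fits (adjusted p from 0.00724 to 0.716). Among the blood cell markers, CD3E of T cells and HBB of red cells had no read in any library and PTPRC, the leukocyte common antigen, had 0 to 8 reads. The measured leukocyte markers summed to 16.2 CPM in the knockdown and 15.4 in the control of C4-2B ENZR (3 genes), and to 29.1 and 19.9 CPM in the knockdown and control of LNCaP (2 genes). The LNCaP sum was made up of LYZ and CD68, which were at 4.32 and 24.8 CPM in the LNCaP knockdown and 2.78 and 17.1 in its control. Of 7 stromal and endothelial markers 4 were measured, led by COL1A1 (52.9 and 44.4 CPM in the C4-2B ENZR knockdown and control, 60.9 and 54.2 CPM in those of LNCaP) and VWF (2.60 and 2.91 CPM, 16.1 and 13.7 CPM), with COL1A2 at 0 throughout.

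Knockdown of MAOA came with few differences among the 34 genes. Of the 28 that could be tested over both lines, HLA-B rose, OAS3 fell and 26 did not pass, where 4.22% of all tested genes rose and 1.49% fell. None of the members was past 2-fold in either line. In RNA of whole cultures, fewer cells with a transcript and less of it per cell cannot be told apart. The 2-fold background was small, at 0.297% of genes higher and 0.183% lower in C4-2B ENZR and 0.517% higher and 0.246% lower in LNCaP. Their log2 ratios had a median of 0.03 for C4-2B ENZR and of 0.16 for LNCaP, close to the medians of all genes. In C4-2B ENZR the counting interval lay above equality for 4 members and below it for 5 of 31, against 19.5% and 19.5% of all measured genes. In LNCaP, which was read more deeply, it lay above for 18 and below for 4 of 33, against 44.4% and 18.0% of all genes. With LNCaP ratios centred on the median ratio, it lay above for 14 members and for 4614 of the 15869 measured genes. With libraries rescaled to the same sum these were 13 and 3505, so how near the members were to the background depended on the scaling. Of the 28 tested members 15 had a positive ratio in both lines, 4 a negative one in both and 9 opposite signs.

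**Figure D1:**
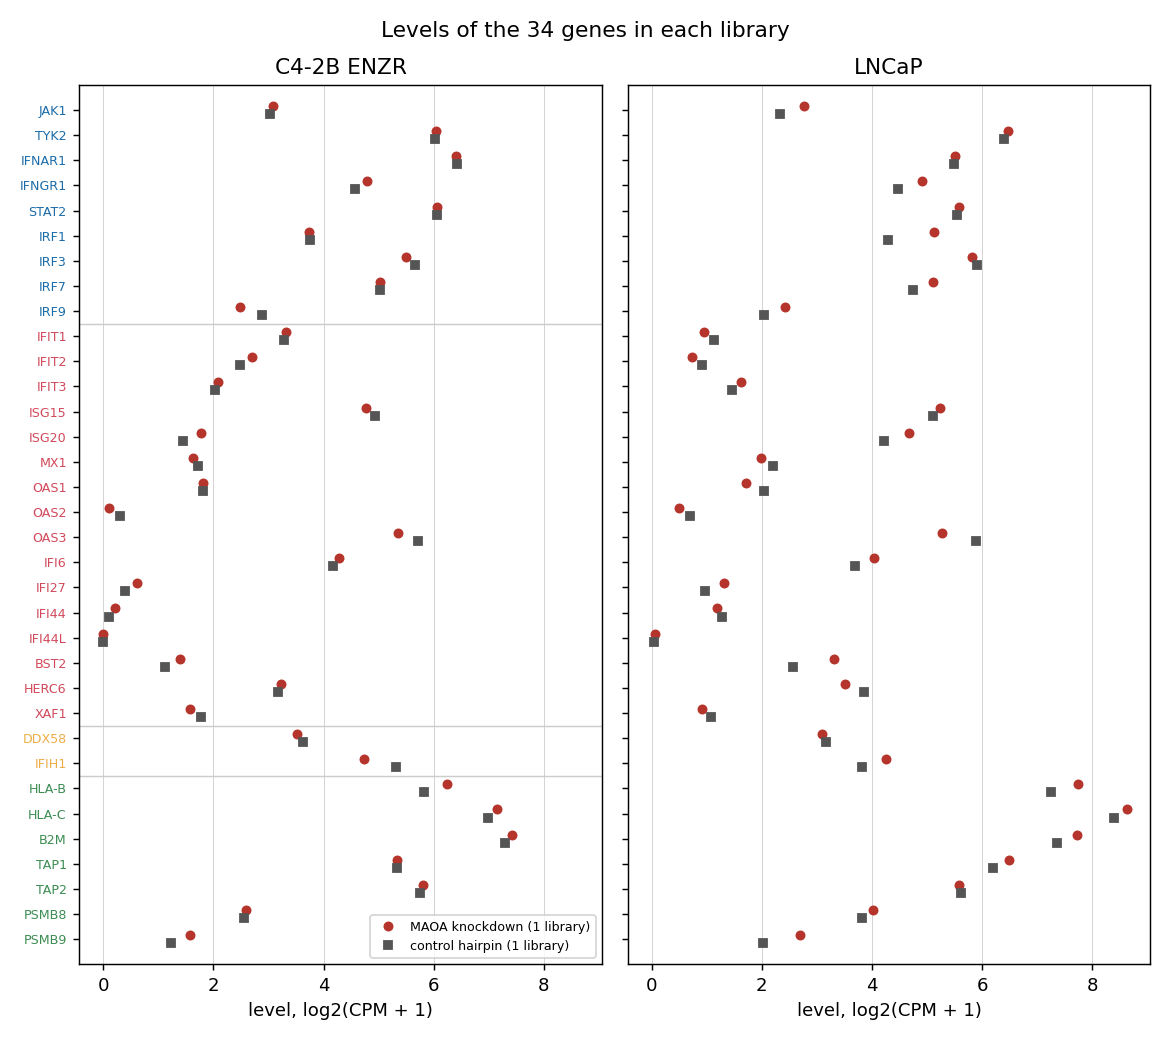
Level of each of the 34 genes as log2(CPM + 1), in C4-2B ENZR (left) and LNCaP (right), with 1 circle for the MAOA knockdown library and 1 square for the control library of each line. Genes run by role from signalling (blue names) through effectors (red) and RNA sensors (orange) to class I presentation (green). B2M and HLA-C sit furthest right in C4-2B ENZR, HLA-C, HLA-B and B2M do in LNCaP, and IFI44L sits at or near 0.

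Along the signalling pathway, no gene of an interferon itself reached the measuring limit. Over 10 ligand genes there were 6 reads in the C4-2B ENZR knockdown and 5 in its control, and 20 in the LNCaP knockdown and 12 in its control. The most read were IFNL3, with 12 reads in the LNCaP knockdown and 0 in its control, and IFNL2, with 1 and 7, a pair of interferon lambda genes that are near-identical copies, so their split is uncertain. IFNB1, interferon beta, had 3 reads in the LNCaP knockdown and none in the other 3 libraries. Where a library had 0 reads, up to 3 reads (0.122 and 0.121 CPM in the C4-2B ENZR knockdown and control, 0.0614 and 0.0529 CPM in those of LNCaP) are allowed by counting.

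IFNAR1, a chain of the type I receptor, was at 83.8 CPM in the knockdown and 84.6 in the control of C4-2B ENZR and at 44.3 CPM in the knockdown and 43.7 in the control of LNCaP. IFNGR1, the ligand-binding chain of the interferon gamma receptor, was at 26.8 and 22.6 CPM in the C4-2B ENZR knockdown and control [0.08 to 0.41] and at 29.2 and 21.1 CPM in those of LNCaP [0.35 to 0.58]. The gamma receptor chain was thus higher in the knockdown of both lines, but did not pass (mean log2 ratio 0.34, SE 0.14, limma adjusted p = 0.135), while the type I chain had almost the same level in knockdown and control.

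JAK1, the kinase shared by all interferon receptors, was at 7.52 CPM in the knockdown and 7.16 in the control of C4-2B ENZR, and at 5.77 CPM in the knockdown and 4.02 in the control of LNCaP [0.27 to 0.78]. TYK2, its partner at the type I receptor, was at 64.8 and 63.7 CPM in the C4-2B ENZR knockdown and control and at 87.6 and 83.5 CPM in those of LNCaP. Per kilobase of transcript JAK1 was the lowest of the 9 signalling genes in each library, with 1.49 and 1.42 CPM per kb in the C4-2B ENZR knockdown and control and 1.14 and 0.796 in those of LNCaP. TYK2 stood at 14.9 and 14.7 CPM per kb in the C4-2B ENZR knockdown and control and at 20.1 and 19.2 in those of LNCaP. Neither kinase passed the test (limma adjusted p = 0.449 for JAK1 and 0.895 for TYK2), and the sign of TYK2 in LNCaP (0.07) turned to -0.07 after centring on the median ratio. JAK2, the kinase of the gamma receptor's other chain, which is no member and was singled out after its values were seen, was at 4.11 and 4.06 CPM per kb in the C4-2B ENZR knockdown and control and at 1.76 and 1.38 in those of LNCaP.

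STAT2, which carries the type I signal to the nucleus, was at 65.7 CPM in both C4-2B ENZR libraries and at 47.1 CPM in the LNCaP knockdown and 45.9 in its control. IRF9, its DNA-binding partner, was at 4.60 CPM in the knockdown and 6.35 in the control of C4-2B ENZR [-0.83 to -0.11], and at 4.34 CPM in the knockdown and 3.14 in the control of LNCaP [0.17 to 0.76]. It was lower in the knockdown of one line and higher in that of the other, and its mean log2 ratio was -0.01 (limma adjusted p = 0.981). All 50-base stretches of the IRF9 transcript (100%) also occur in a readthrough gene of the GENCODE annotation, so its counts are uncertain if that gene was in the authors' annotation.

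IRF1, the transcription factor induced by interferon gamma, had the largest LNCaP ratio among the members. It was at 33.8 CPM in the LNCaP knockdown and 18.5 in its control (log2 ratio 0.83 [0.75 to 0.98]), but at 12.4 CPM in the knockdown and 12.5 in the control of C4-2B ENZR (-0.01 [-0.24 to 0.22]). Over both lines it did not pass (mean 0.41, SE 0.15, limma adjusted p = 0.0752), although edgeR on the authors' scaling called it (adjusted p = 0.0360). Of its exonic bases 16.2% overlap C5orf56 on the other strand, and no source used here says whether counting used strand. The GAS element searched was TTCNNNGAA on either strand, in the 250 bases before each RefSeq start. It occurs in 6.57% of 35116 promoters and in 5 of the 30 member promoters that were found, IRF1 among them. The IRF1 stretch is shown for that match, in capitals, with the GRCh38.p14 position chr5:132490849-132490937 on the minus strand.
IRF1: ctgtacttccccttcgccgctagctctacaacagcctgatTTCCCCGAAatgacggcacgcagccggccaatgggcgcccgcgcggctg
The other members with the GAS letters were BST2, IFI27, IRF9 and OAS1, and their LNCaP log2 ratios ran from -0.33 to 0.74, with OAS1 the only one of the 5 below 0 there.

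IRF3, which acts downstream of the nucleic acid sensors, was at 44.0 CPM in the knockdown and 49.4 in the control of C4-2B ENZR [-0.29 to -0.05], and at 55.3 CPM in the knockdown and 59.3 in the control of LNCaP [-0.17 to -0.03]. It was slightly lower in both knockdowns and did not pass (limma adjusted p = 0.632); 21.5% of its exonic bases overlap BCL2L12 on the other strand. IRF7, the factor that amplifies type I interferon production, was at 31.6 CPM in the knockdown and 31.5 in the control of C4-2B ENZR, and at 33.4 CPM in the knockdown and 25.9 in the control of LNCaP [0.26 to 0.47], without passing (limma adjusted p = 0.505). As a group the 9 signalling genes had a median log2 ratio of 0.00 in C4-2B ENZR, equal to that of all genes, and 0.35 in LNCaP, where 5 of 9 lay above the median of all genes and none passed over both lines in limma (2 at an unadjusted p under 0.05), edgeR with recomputed TMM or DESeq2. The LNCaP median was 0.20 with a pseudocount of 5, 0.22 after centring, 0.16 after rescaling and 0.068 over genes with a mean of at least 5 CPM.

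Interferon-induced effectors had ratios of both signs. Of 16 genes 13 were measured in C4-2B ENZR, with a median log2 ratio of 0.05, and 15 in LNCaP, with a median of -0.17 against 0.10 for all genes. The LNCaP median turned to 0.027 over effectors with a mean of at least 1 CPM and to 0.23 over those with at least 5 CPM. In LNCaP 9 of the 15 had a negative ratio and 6 lay above the median of all genes. Of the 10 that could be tested OAS3 fell and 9 did not pass.

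The OAS enzymes make 2'-5' linked oligoadenylates in response to double-stranded RNA, which activate the nuclease RNase L. OAS3 was at 39.97 CPM in the knockdown and 51.3 in the control of C4-2B ENZR (log2 ratio -0.35 [-0.48 to -0.24]), and at 37.4 CPM in the knockdown and 58.1 in the control of LNCaP (-0.62 [-0.72 to -0.55]). Both knockdown libraries were lower than their controls, and OAS3 fell over both lines (mean -0.49, SE 0.13, limma adjusted p = 0.00674). The call held in 9 of the 10 other fits tried, with adjusted p from 0.000457 to 0.0304, and ended in limma without a filter on low values (0.649), where no gene passed. OAS1 was at 2.52 CPM in the knockdown and 2.51 in the control of C4-2B ENZR, and at 2.27 CPM in the knockdown and 3.10 in the control of LNCaP [-0.81 to -0.10]. OAS2 had 2 reads in the knockdown and 6 in the control of C4-2B ENZR, and was at 0.409 CPM in the knockdown and 0.617 in the control of LNCaP [-1.46 to 0.24]. All 3 OAS genes among the members had lower values in the LNCaP knockdown, with intervals below equality for OAS1 and OAS3. OASL, a further gene of the family, is no member and was singled out after its values were seen. It was higher in the LNCaP knockdown (1.15 CPM) than in its control (0.863), with an interval that included equality [-0.17 to 0.99]. In C4-2B ENZR OASL was at 2.93 CPM in the knockdown and 2.91 in the control.

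BST2, or tetherin, which holds budding virus at the cell surface, had the highest mean ratio of the effectors tested. It was at 1.63 CPM in the knockdown and 1.17 in the control of C4-2B ENZR [-0.25 to 1.21], and at 8.86 CPM in the knockdown and 4.90 in the control of LNCaP [0.63 to 1.08]. The mean log2 ratio of 0.51 (SE 0.18) missed the threshold (limma adjusted p = 0.0665), which it passed in edgeR on the authors' scaling (0.0470) and in limma with a pseudocount of 5 (0.0433). ISG20, an exonuclease acting on RNA, was at 2.44 CPM in the knockdown and 1.74 in the control of C4-2B ENZR [-0.10 to 1.09], and at 24.5 CPM in the knockdown and 17.7 in the control of LNCaP [0.35 to 0.59], with an adjusted p of 0.151 in limma. ISG15, the ubiquitin-like protein, was the effector with the highest level per kilobase. It was at 26.2 CPM in the knockdown and 29.7 in the control of C4-2B ENZR [-0.34 to -0.03], and at 36.9 CPM in the knockdown and 33.7 in the control of LNCaP [0.04 to 0.22]. The LNCaP difference of ISG15 (log2 0.13) was close to the shift of all genes, and its sign turned after centring (-0.01) or rescaling to the same sum (-0.07).

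IFI6, a mitochondrial and endoplasmic reticulum protein that opposes apoptosis, was at 18.4 CPM in the knockdown and 17.0 in the control of C4-2B ENZR, and at 15.3 CPM in the knockdown and 11.9 in the control of LNCaP [0.21 to 0.51]. The IFIT proteins bind foreign RNA. IFIT1 was at 8.95 CPM in the knockdown and 8.69 in the control of C4-2B ENZR, and at 0.921 CPM in the knockdown and 1.198 in the control of LNCaP. IFIT2 was at 5.49 and 4.57 CPM in the C4-2B ENZR knockdown and control and at 0.655 and 0.881 CPM in those of LNCaP, and IFIT3 at 3.25 and 3.07 CPM and at 2.07 and 1.74 CPM. The intervals of all 3 included equality in both lines, so no difference was detectable at this depth. MX1, a dynamin-like antiviral GTPase, was at 2.11 CPM in the knockdown and 2.30 in the control of C4-2B ENZR, and at 2.95 CPM in the knockdown and 3.61 in the control of LNCaP. HERC6, a HECT-domain protein, was at 8.34 and 8.01 CPM in the C4-2B ENZR knockdown and control, and at 10.4 CPM in the LNCaP knockdown and 13.6 in its control [-0.55 to -0.22]. XAF1, which opposes the apoptosis inhibitor XIAP, was at 1.99 and 2.43 CPM in the C4-2B ENZR knockdown and control and at 0.880 and 1.11 CPM in those of LNCaP, with intervals that included equality.

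The remaining effectors were at low levels, with IFI44 in C4-2B ENZR and IFI44L in both lines close to the floor. IFI27 had 13 reads in the knockdown and 8 in the control of C4-2B ENZR, and 72 and 55 reads in the knockdown and control of LNCaP [0.08 to 1.14]. IFI44 had 4 and 2 reads in the knockdown and control of C4-2B ENZR and 63 and 80 in those of LNCaP. IFI44L, its paralogue, had no read in either C4-2B ENZR library and 2 reads in each LNCaP library. Across IFI27, IFI44 and IFI44L the highest level in the 4 libraries was 1.47 CPM. Other interferon-induced members, such as ISG15, IFI6 and OAS3, stood higher in every library.

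**Figure D2:**
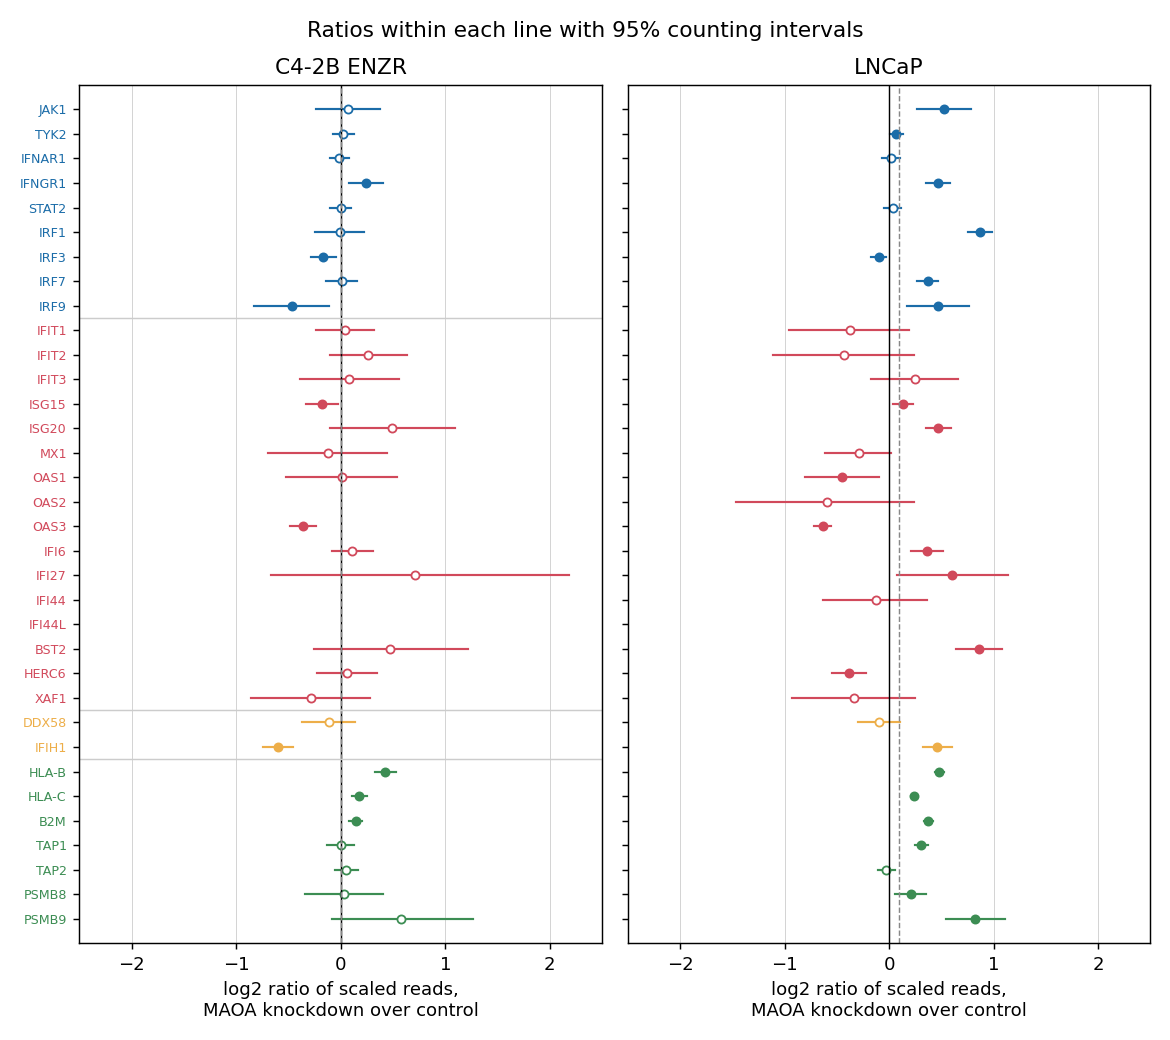
Log2 ratio of scaled reads, MAOA knockdown over control, for each measured gene in C4-2B ENZR (left) and LNCaP (right), with exact 95% counting intervals; filled points have an interval that excludes equality. The dashed line is the median log2 ratio of all measured genes (0.00 and 0.10). HLA-B is above and OAS3 below 0 in both lines, and IFIH1 and IRF9 lie on opposite sides.

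The RNA sensors detect viral double-stranded RNA in the cytosol and signal through MAVS. DDX58, or RIG-I, was at 10.4 CPM in the knockdown and 11.3 in the control of C4-2B ENZR, and at 7.49 CPM in the knockdown and 8.02 in the control of LNCaP, with intervals that included equality. IFIH1, or MDA5, was at 25.6 CPM in the knockdown and 38.8 in the control of C4-2B ENZR (log2 ratio -0.58 [-0.75 to -0.45]), but at 18.1 CPM in the knockdown and 13.1 in the control of LNCaP (0.43 [0.32 to 0.60]). It had the lowest ratio of all members in C4-2B ENZR and one of the higher ones in LNCaP. The mean was -0.07 (limma adjusted p = 0.845), and 4 libraries allow no test of how the lines differed.

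The ISRE element was searched for by its consensus on either strand in the 250 bases before the start. It occurs in 3.02% of 35116 promoters and in 14 of the 30 member promoters found, those of B2M, BST2, IFI27, IFI44, IFI44L, IFI6, IFIH1, IFIT1, IFIT3, ISG15, ISG20, OAS3, TAP1 and TAP2. The stretches of 3 genes are shown because the genes had unlike ratios while all hold an ISRE match, which is in capitals. They are OAS3 (GRCh38.p14 chr12:112938291-112938473, plus strand, matches beginning 143 and 12 bases before the start), IFIH1 (chr2:162318685-162318883, minus strand, 159, 153 and 21 bases) and BST2 (chr19:17405705-17405800, minus strand, 130 and 124 bases).
OAS3: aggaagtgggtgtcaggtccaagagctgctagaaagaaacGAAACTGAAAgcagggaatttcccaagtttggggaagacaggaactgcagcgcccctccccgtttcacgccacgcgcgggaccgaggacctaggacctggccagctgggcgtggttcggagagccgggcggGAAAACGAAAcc
IFIH1: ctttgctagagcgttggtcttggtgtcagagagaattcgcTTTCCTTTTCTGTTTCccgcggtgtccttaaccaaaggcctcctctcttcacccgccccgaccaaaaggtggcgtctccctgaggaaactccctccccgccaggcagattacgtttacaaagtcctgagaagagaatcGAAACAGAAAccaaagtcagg
BST2: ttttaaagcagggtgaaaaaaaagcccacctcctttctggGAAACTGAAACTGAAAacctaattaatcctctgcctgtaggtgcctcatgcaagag
In LNCaP the measured members with an ISRE match had a median log2 ratio of 0.30 (13 genes, 9 above 0) and those without one of 0.13 (16 genes, 11 above 0). In C4-2B ENZR the medians were 0.06 (12 genes, 9 above 0) and 0.01 (16 genes, 10 above 0). Both sets thus held genes of either direction. A match of letters is a description and not a shown binding site. Members without a match may still hold a looser form of the element, or a match before another start of the gene. A single RefSeq start was searched for each member, and the stretch searched for IFNGR1 includes coding sequence. The sets are thus split only by these letters in these stretches.

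Class I presentation genes were the members with the most even direction. In C4-2B ENZR 6 of 7 had a ratio above 0 and TAP1 one of 0.00 (median log2 0.14, all genes 0.00), and in LNCaP 6 of 7 lay above 0, with TAP2 the exception (median 0.30, all genes 0.10). The interval lay above equality for 3 of 7 in C4-2B ENZR and 6 of 7 in LNCaP, against 19.5% and 44.4% of all measured genes. It lay below equality for none, against 19.5% and 18.0%. Intervals narrow with read number, and HLA-B, HLA-C, B2M, TAP1 and TAP2 were all above 10 CPM. Of the 10113 C4-2B ENZR genes with a mean of at least 10 CPM, the interval lay above equality for 2484 and below for 2699. Of the 9924 such genes in LNCaP it lay above for 5712 and below for 1983. The LNCaP intervals were set against 0 and not against the median of all genes. Without HLA-B and HLA-C, a setting chosen after seeing the data, the C4-2B ENZR median was 0.054. There 4 of the 5 genes left had an interval that included equality. Over both lines HLA-B rose and 6 did not pass. In LNCaP the median stayed above 0 after centring (0.17) or rescaling to the same sum (0.10), both smaller than in the authors' scaling. The leukocyte genes LYZ and CD68 were also higher in the LNCaP knockdown, where PTPRC had 8 reads against 0 in the control, and CD3E had none in either. Their part in the class I values was not tested.

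HLA-B, a class I heavy chain, was at 74.9 CPM in the knockdown and 55.8 in the control of C4-2B ENZR (log2 ratio 0.42 [0.32 to 0.53]), and at 212 CPM in the knockdown and 152 in the control of LNCaP (0.48 [0.44 to 0.52]). Each knockdown library was higher than its control by a similar factor, and HLA-B rose (mean 0.45, SE 0.12, limma adjusted p = 0.0114). The call ended in edgeR with recomputed TMM (adjusted p = 0.0574), in DESeq2 (0.0757) and in limma without a filter (0.649). HLA-C was at 142 CPM in the knockdown and 125 in the control of C4-2B ENZR (0.18 [0.11 to 0.25]), and at 394 CPM in the knockdown and 334 in the control of LNCaP (0.24 [0.21 to 0.27]). It was also higher in both, by less, and did not pass (mean 0.21, limma adjusted p = 0.399). HLA genes are highly polymorphic and share sequence: 2.54% of the 50-base stretches of HLA-B and 6.79% of those of HLA-C occur in another gene of the reference, and 24.0% of HLA-B's exonic bases overlap a gene on the other strand that has no row in the tables. Reads of alleles unlike the reference may be lost or moved between these genes.

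The upstream stretches of HLA-B and HLA-C are shown because the genes are close relatives of which only one passed the test. Their 250-base promoters were identical at 89.0% of 254 aligned columns. Neither holds an ISRE match in that window, and in both the capitals mark matches to an NF-kappaB element on either strand, which occurs in 22.6% of all promoters and in 13 of 30 member promoters. The positions are chr6:31357306-31357396 and chr6:31272215-31272320 on the minus strand of GRCh38.p14. B2M, with its ISRE matches in capitals, is at chr15:44711333-44711428 on the plus strand. These are reference sequences, not those of the alleles in the lines.
HLA-B: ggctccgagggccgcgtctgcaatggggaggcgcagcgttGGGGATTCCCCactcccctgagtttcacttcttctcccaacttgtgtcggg
HLA-C: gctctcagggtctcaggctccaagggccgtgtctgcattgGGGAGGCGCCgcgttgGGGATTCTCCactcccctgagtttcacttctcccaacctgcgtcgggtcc
B2M: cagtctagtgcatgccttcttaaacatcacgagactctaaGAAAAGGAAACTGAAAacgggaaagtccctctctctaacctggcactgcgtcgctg

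B2M, the light chain of every class I molecule, was at 172 CPM in the knockdown and 155 in the control of C4-2B ENZR (0.14 [0.08 to 0.21]), and at 211 CPM in the knockdown and 163 in the control of LNCaP (0.37 [0.33 to 0.41]). It was higher in both knockdowns and did not pass (mean 0.26, SE 0.13, limma adjusted p = 0.244). Per kilobase B2M stood at 101 and 91.2 CPM in the C4-2B ENZR knockdown and control and at 124 and 95.4 in those of LNCaP. HLA-C stood at 92.2 and 81.5 CPM per kb in C4-2B ENZR and at 256 and 217 in LNCaP, knockdown and control, so heavy chain RNA exceeded light chain RNA per length in the LNCaP libraries.

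PSMB9 and PSMB8 are catalytic subunits that turn the proteasome into the immunoproteasome. PSMB9 was at 1.99 CPM in the knockdown and 1.33 in the control of C4-2B ENZR (log2 ratio 0.36 [-0.09 to 1.26]), and at 5.44 CPM in the knockdown and 3.08 in the control of LNCaP (0.66 [0.54 to 1.10]). Its mean ratio of 0.51 (SE 0.18) was the largest of the class I members and missed the threshold (limma adjusted p = 0.0720). PSMB8 was at 5.00 CPM in the knockdown and 4.89 in the control of C4-2B ENZR, and at 15.2 CPM in the knockdown and 13.2 in the control of LNCaP [0.06 to 0.35]. The constitutive subunits that they replace, PSMB6 and PSMB5, had ratios below 0. PSMB6 was at 98.7 CPM in the knockdown and 111 in the control of C4-2B ENZR [-0.25 to -0.09], and at 90.3 CPM in the knockdown and 100.01 in the control of LNCaP [-0.20 to -0.09]. PSMB5 was at 125 and 131 CPM in the C4-2B ENZR knockdown and control [-0.14 to 0.00] and at 102 and 107 CPM in those of LNCaP [-0.13 to -0.02]. With PSMB7 all 3 constitutive subunits had ratios below 0 in both lines, and none passed in limma (0 at an unadjusted p under 0.05), edgeR or DESeq2.

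TAP1 and TAP2 form the transporter that carries peptides into the endoplasmic reticulum. TAP1 was at 39.5 CPM in both C4-2B ENZR libraries [-0.13 to 0.13], and at 88.9 CPM in the LNCaP knockdown and 72.0 in its control [0.24 to 0.37]. TAP2 was at 54.9 CPM in the knockdown and 52.9 in the control of C4-2B ENZR [-0.06 to 0.17], and at 47.1 CPM in the knockdown and 48.1 in the control of LNCaP [-0.11 to 0.05]. In LNCaP the partners of the transporter thus had unlike ratios, 0.30 for TAP1 and -0.03 for TAP2. The TAP2 value is uncertain, since 80.2% of the 50-base stretches of its transcript also occur in an overlapping gene of the GENCODE annotation on the same strand, which has no row in the tables. TAP1 and PSMB9 are read in opposite directions from RefSeq starts that lie 487 bases apart, and in LNCaP both intervals lay above equality. In C4-2B ENZR both intervals included it.

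**Figure D3:**
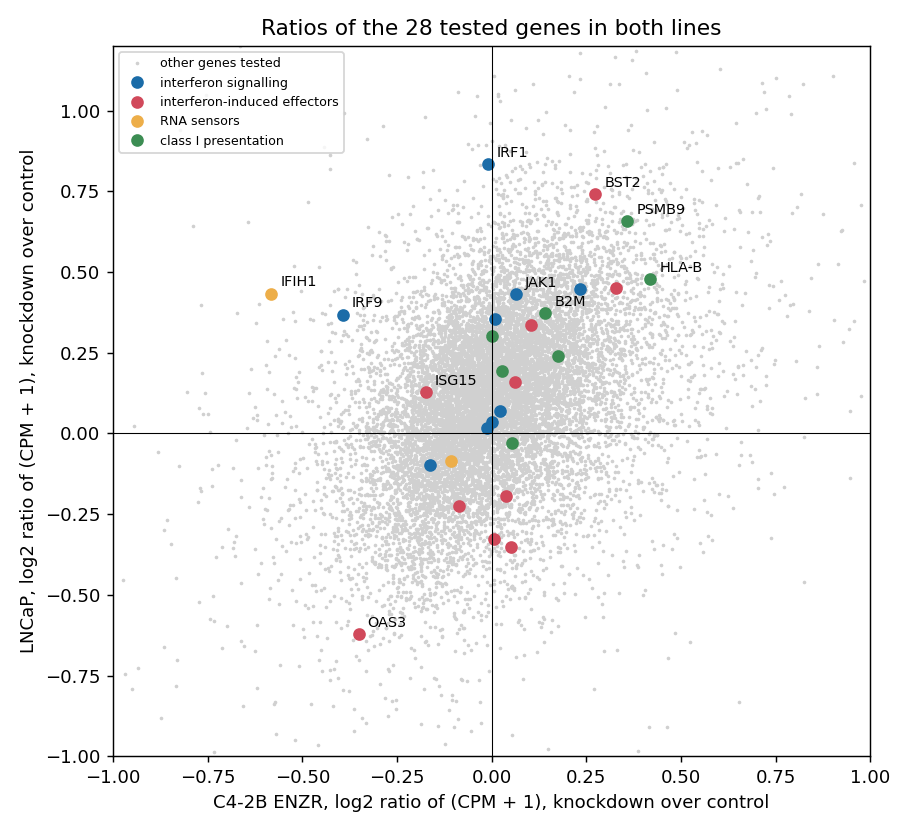
Log2 ratio of (CPM + 1), knockdown over control, in C4-2B ENZR (horizontal) against LNCaP (vertical), 1 point per gene, for the 28 members tested over both lines (colours by role) and all other tested genes within the plotted range (grey). HLA-B (0.42 and 0.48) and OAS3 (-0.35 and -0.62) have the same sign in both lines, while IFIH1 (-0.58 and 0.43) does not.

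Other genes of the pathway were taken from lists chosen with earlier results of these data known. Of 15 further class I presentation genes 14 were tested, HLA-F rose and none fell. HLA-F, a nonclassical heavy chain, was at 10.2 CPM in the knockdown and 4.89 in the control of C4-2B ENZR (0.93 [0.74 to 1.39]), and at 16.1 CPM in the knockdown and 13.1 in the control of LNCaP (0.28 [0.15 to 0.45]; mean 0.60, SE 0.16, limma adjusted p = 0.00644). That call ended with edgeR and recomputed TMM (adjusted p = 0.159) and in limma without a filter (0.716), and DESeq2 gave HLA-F no adjusted p. HLA-E, singled out after its values were seen, had a log2 ratio of 0.27 for C4-2B ENZR and of 0.43 for LNCaP without passing (limma adjusted p = 0.0775). The most abundant genes of that list were the chaperone genes CALR, at 1028 and 996 CPM in the C4-2B ENZR knockdown and control and 2053 and 1574 CPM in those of LNCaP, and PDIA3, at 824 and 783 CPM and at 928 and 767 CPM. Measured genes of the list had a median log2 ratio of 0.08 for C4-2B ENZR and of 0.28 for LNCaP.

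Among 14 other receptors, kinases and feedback genes 12 were tested and none passed in limma (1 at an unadjusted p under 0.05). STAT3 was at 199 CPM in both C4-2B ENZR libraries and at 275 CPM in the LNCaP knockdown and 234 in its control, and the phosphatase gene PTPN11 at 320 and 309 CPM in the C4-2B ENZR knockdown and control and at 352 and 284 CPM in those of LNCaP. Of 17 genes of nucleic acid sensing 12 were tested and none passed (2 at an unadjusted p under 0.05). MAVS, the adaptor of the RNA sensors, was at 173 and 181 CPM in the C4-2B ENZR knockdown and control and at 201 and 173 CPM in those of LNCaP, and ADAR, which edits double-stranded RNA, at 473 and 504 CPM and at 390 and 371 CPM. Of 39 other interferon-induced genes 27 were tested and none passed (7 at an unadjusted p under 0.05, which 19.2% of all tested genes reached). ZNFX1 was at 113 and 105 CPM in the C4-2B ENZR knockdown and control and at 126 and 83.1 CPM in those of LNCaP, and IFITM3, which blocks viral entry, at 65.1 and 68.1 CPM and at 90.0 and 99.1 CPM. By the ratio of (CPM + 1), TRIM22 was the 1 gene of all these lists past 2-fold in a line at a mean of at least 1 CPM. It had 111 reads in the LNCaP knockdown and 27 in its control [1.64 to 2.92], and 22 and 12 reads in the knockdown and control of C4-2B ENZR. By CPM without the added 1, other genes were past 2-fold too. Among them in C4-2B ENZR were HLA-F (209% of control), CMPK2 (49.0%) and GBP1 (40.2%). In these 3 lists edgeR with recomputed TMM and DESeq2 also called 0 genes, and edgeR with the deposited scaling called 1, LGALS3BP. In limma, CMPK2 and DTX3L fell once ratios were centred on the median ratio or libraries rescaled to equal sums, and TRIM22 rose at a mean of at least 0.25 CPM.

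Of 7 class II presentation genes 4 were tested and none passed in limma (1 at an unadjusted p under 0.05), edgeR or DESeq2. HLA-DMA, a peptide loading factor, was at 4.60 CPM in the knockdown and 2.39 in the control of C4-2B ENZR [0.48 to 1.43], and at 12.6 CPM in the knockdown and 10.995 in the control of LNCaP [0.03 to 0.36]. CD74, the invariant chain, had 1 and 2 reads in the C4-2B ENZR knockdown and control and was at 8.86 CPM in the LNCaP knockdown and 6.36 in its control [0.27 to 0.68].

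**Figure D4:**
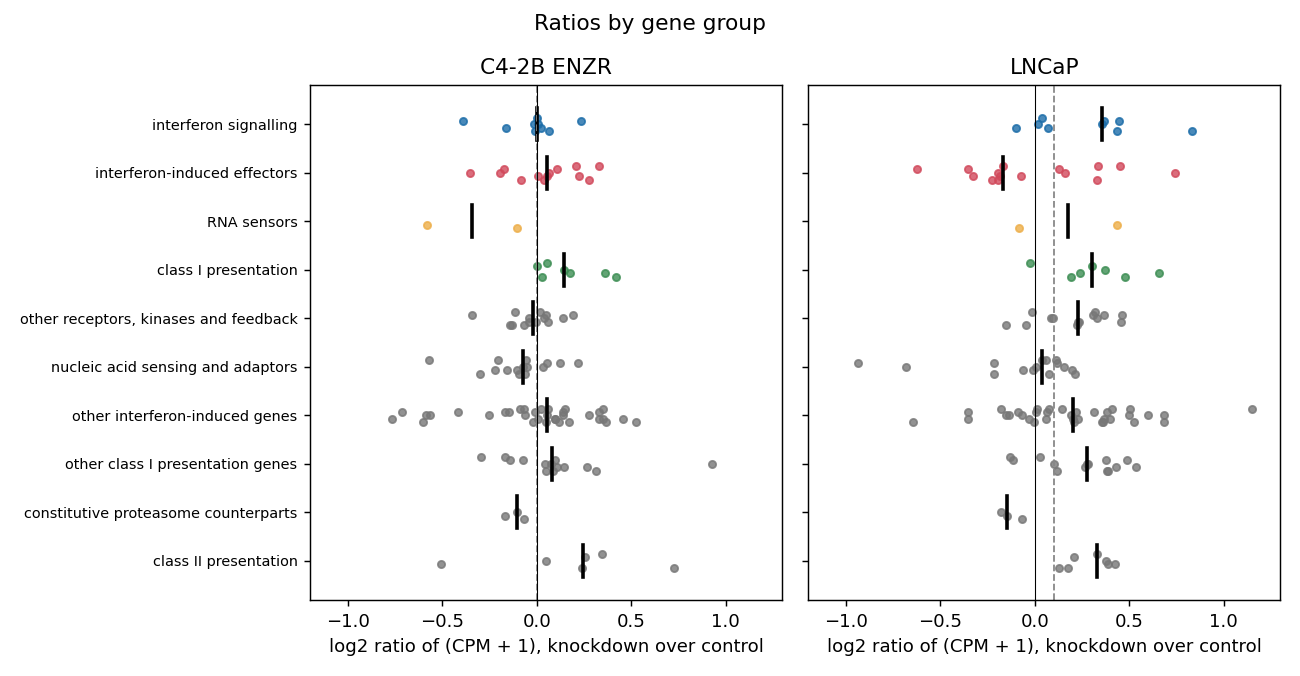
Log2 ratio of (CPM + 1), knockdown over control, for the measured genes of each group in C4-2B ENZR (left) and LNCaP (right), 1 point per gene, with the group's median as a black bar and the median of all genes as a dashed line (0.00 and 0.10). Class I presentation has a median of 0.14 and 0.30, interferon-induced effectors one of 0.05 and -0.17, and the constitutive proteasome subunits one of -0.10 and -0.15.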

How the data were processed

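RNA was sequenced from 4 libraries of 2 prostate cancer lines. Per the submitters' processing notes, reads were aligned with Bowtie2 2.1.0, quantified with RSEM 1.2.15 and handled in edgeR, on hg19. The authors deposited CPM for C4-2B ENZR and a CPM-like signal for LNCaP, each line scaled on its own, with column sums from 925958 to 1064501. Whole reads were recovered from the steps of low values. No source used here says whether counting used strand.

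From the deposited values, log2 ratios with a pseudocount of 1 CPM were formed within each line and tested over both lines with limma 3.58.1 (R 4.3.3, trended, Benjamini-Hochberg at 0.05). edgeR 4.0.16 (quasi-likelihood) and DESeq2 1.42.0, run on recovered reads with line as a term, were alternatives, as were other pseudocounts, filters and scalings. Fits were tested on simulated data. In that test limma recovered 98% of 100 genes changed 2-fold and 66% of 100 changed 1.5-fold among 13114 genes over both lines. Each changed gene was given the same change in both lines, with a fixed spread between libraries and no shift in scaling. Changed genes were drawn only from those with at least 2 CPM in both controls, so the shares do not cover lower genes. How many unchanged genes were called is not given here. The real lines differ from these settings, so the recovered shares may be too high for the real data. Members and lists were chosen with earlier results of these data known. All members are named. Of other lists, genes past the limma threshold, past 2-fold by the ratio of (CPM + 1) at a mean of at least 1 CPM, or the 2 with the highest CPM are named. Of the rows, 28 have symbols turned into dates, none of them a member. CPM per kb used the GENCODE v29 principal transcript. Promoters are from RefSeq GRCh38.p14, with 30 of 34 members matched, each by a single start. No coordinates of the deposited tables were used.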

Additional observations from a re-analysis of the deposited data

Results flagged for a closer look

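IRF9, ISG15 and IFIH1 had counting intervals that excluded equality on opposite sides in the lines. IRF9 had a log2 ratio of -0.39 in C4-2B ENZR and 0.37 in LNCaP. ISG15 had -0.17 for C4-2B ENZR and 0.13 for LNCaP, and centring LNCaP on its median ratio gave -0.0067, so its opposite sign rests on the scaling of LNCaP. IFIH1 had -0.58 in C4-2B ENZR and 0.43 in LNCaP, with 629 reads in the knockdown and 959 in the control of C4-2B ENZR and 882 and 744 reads in the knockdown and control of LNCaP. The difference between the lines was not tested for these genes, since 1 library per group leaves no residual degree of freedom for it.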

How the results depend on the processing

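The authors' scaling raised LNCaP knockdown values by 0.22 (log2) relative to control per read, and recomputed TMM by 0.10. The median ratio of genes with a mean of at least 10 CPM was 0.13 in LNCaP. Directions of small LNCaP ratios therefore depend on the scaling. With 1 library per group, no library could be left out. No paired analysis was possible because the labels carry no replicate numbers, beyond the pairing by line that every fit already holds. Over both lines 554 genes rose and 195 fell, 74.0% of calls being higher. Rising genes numbered 0 without a filter (1119 higher and 748 lower at an unadjusted p under 0.05), 369 after rescaling to the same sum, 175 in edgeR with recomputed TMM and 131 in DESeq2. Falling genes numbered 127 at a mean of at least 0.25 CPM, 0 without a filter, 543 after centring on the median ratio, 683 after rescaling, 128 in edgeR with recomputed TMM and 90 in DESeq2, which gave no adjusted p for 3560 genes and 12 members. Higher calls made up 51.6% after centring, 35.1% after rescaling, 57.8% in edgeR with recomputed TMM and 59.3% in DESeq2. Of the members 1 rose; this was 2 with a pseudocount of 5 (HLA-B and BST2), 3 in edgeR with the deposited scaling (HLA-B, BST2 and IRF1), and 0 without a filter (2 at an unadjusted p under 0.05), in edgeR with recomputed TMM (6) and in DESeq2 (1). The 1 member that fell was 0 without a filter. MAOA itself lost its call in DESeq2 (adjusted p = 0.315). The cause was not tested. Mean log2 ratios near 0 changed sign under centring, rescaling, edgeR with recomputed TMM and DESeq2. In that order they were -0.018, -0.064, -0.018 and -0.013 for TYK2, and -0.061, -0.11, -0.060 and -0.056 for IFNAR1. STAT2 gave -0.046, -0.091, -0.045 and -0.041, TAP2 gave -0.051, -0.10, -0.052 and -0.048, and FOLH1 gave -0.052, -0.10, -0.051 and -0.047. VWF gave -0.013 after centring and -0.051 after rescaling, MAVS -0.036 after rescaling, and IRF9 0.022 in edgeR with the deposited scaling. In C4-2B ENZR 47 genes were 2-fold higher and 29 lower. These were 206 and 157 with a pseudocount of 0.1, 18 and 6 with one of 5, and 26 and 9 at a mean of at least 5 CPM. In LNCaP 82 were higher and 39 lower. These were 273 and 165 with a pseudocount of 0.1, 40 and 6 with one of 5, 50 and 65 after centring, and 43 and 72 after rescaling, with 19 lower at a mean of at least 5 CPM. LNCaP intervals lay above equality for 7039 genes, 4614 after centring and 3505 after rescaling, and below it for 2853, 4948 and 6214. For members above equality the count was 18, then 14 and 13, and for those below it 4, then 10 and 11. The LNCaP median of the members was 0.0048 after rescaling. That of the signalling genes was 0.20 with a pseudocount of 5, 0.22 after centring, 0.16 after rescaling and 0.068 at a mean of at least 5 CPM. That of the effectors was 0.23 at a mean of at least 5 CPM, that of the sensors -0.010 after rescaling, and that of class I presentation 0.17 after centring and 0.10 after rescaling, and 0.30 without HLA-B and HLA-C. Without those 2 genes the C4-2B ENZR median of class I presentation was 0.054, against 0.14 with them. Leaving them out was chosen after seeing the data. LNCaP ratios with an interval off equality that changed sign were, after centring and rescaling, -0.066 and -0.13 for TYK2, -0.0067 and -0.068 for ISG15, and -0.062 and -0.13 for ADAR, and after rescaling alone -0.0078 for HLA-DMA, -0.017 for KLK3 and -0.032 for COL1A1. Among those with an interval that included equality, IFNAR1 was at -0.12 and -0.18 and STAT2 at -0.099 and -0.16 under the same scalings. Of the single-gene values recomputed, 784 kept their direction and their call or stayed within their counting interval, 64 moved beyond it, 33 changed sign as mean ratios or with an interval off equality, 15 lost a call and 3 gained one. Of the counts and medians, 146 stayed close to the value reported.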

Other observations

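Some genes outside the 34 members were singled out after their values were seen. CMPK2, a nucleotide kinase gene induced by interferon, was at 1.59 CPM in the knockdown and 3.24 in the control of C4-2B ENZR [-1.62 to -0.46], and at 1.49 CPM in the knockdown and 2.18 in the control of LNCaP [-0.99 to -0.12]. It did not pass (limma adjusted p = 0.0633), but did after centring on the median ratio (0.0453) and after rescaling to the same sum (0.0383). UBE2L6, which encodes the conjugating enzyme for ISG15, was higher in the knockdown of both lines, with 27.00 CPM in the knockdown against 19.4 in the control of C4-2B ENZR, and 14.5 CPM in the knockdown against 11.01 in the control of LNCaP (limma adjusted p = 0.0719). TMEM173, the STING adaptor of DNA sensing, was at 1.46 CPM in the knockdown and 1.37 in the control of C4-2B ENZR, and at 3.30 CPM in the knockdown and 7.21 in the control of LNCaP [-1.40 to -0.86]. IKBKE, a kinase that acts on IRF3, had 15.2 CPM in the knockdown and 16.1 in the control of C4-2B ENZR, with 5.65 CPM in the knockdown and 9.66 in the control of LNCaP [-0.99 to -0.56]. Both were lower in the LNCaP knockdown and missed the threshold over both lines (limma adjusted p = 0.143 and 0.144).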
